A study of Mus musculus with 142 samples.

Results

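The ∆Z.B.C line is a mouse embryonic stem cell (mESC) line in which, of 3 early replication control elements (ERCEs) on chromosome 16, only ERCE A was left on 1 homolog. Its members were the 4 value columns of clones A6 and E5, of 138 columns in the series, and gave a deleted and a control allele for each of 2 clones out of 53. The parental cells, F121-9, are hybrid mESCs with a strain-129 and a CAST (castaneus) homolog and were grown in 2i and LIF. In both clones the strain-129 homolog carried deletions of the OSN site Z, of the whole of B and of the whole of C, and the CAST homolog was wild type (WT). Each deletion was made with CRISPR and each clone was sequenced once, so the 4 libraries of this line are an early and a late S-phase fraction per clone. The labels name the clones but not whether they came from separate transfections, so the unit behind the p-values is the clone. The limma p-values and SEs rest on a spread pooled over the 53 clones of all genotypes, and not on that between A6 and E5 alone. A further library name in the labels writes the first deletion as AOSN2, whereas the titles and the study's genotype list call it Z. The values cannot tell these apart, because Z and A lie in the same 50 kb window. The study also lists a second OSN site inside A, at its transcript start (chr16:48309960-48310625). If that site had been the one deleted, A would not be intact. The descriptions below follow the titles and the genotype list.

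Replication timing (RT) is the order in which segments of a chromosome are copied during S phase. An ERCE is a stretch of DNA that a domain needs to replicate early, and the 3 known in the Dppa2/4 domain act together, so that loss of 1 is partly covered by the others. OSN sites are bound by Oct4, Sox2 and Nanog, the transcription factors that maintain pluripotency. The comparison described here asks which part of the domain still replicated early when A was the only ERCE on the homolog, and how far the delay spread to each side of it.

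In mm10 the deletions lie on chromosome 16. Z (chr16:48303458-48304031, 574 bp) spans the annotated start of Dppa2 (48303908) with 1 of its 9 exons, and A (chr16:48308248-48311866, 3619 bp) begins 4216 bp to its right, inside Dppa2. The intact A holds a second annotated Dppa2 transcript start (48310477) and 3 of the 9 exons. B (chr16:48396808-48443056, 46249 bp) starts 84941 bp to the right of A, contains the whole of Gm5485 and removes the Morc1 start (48431237) with 3 of its 31 annotated exons. C (chr16:48581334-48620351, 39018 bp) lies another 138277 bp to the right within Morc1 and removes 7 of those exons. Together the deletions took 85841 bp from the homolog. The guide RNA targets that set these ends are printed because they fix what is missing from the deleted allele. All 6 were identical to the mm10 reference, all lie on the minus strand, and capitals mark the PAM, the motif that Cas9 needs beside its target.
Z-OSN-G1: ttactatgtagcagagacaaAGG
Z-OSN-G2: gtattgggatcaaagcgagcTGG
B-G1: cacgtacacagctgcggtagTGG
B-G2: tcagagacggaatcgcatcaTGG
C-LEFT-G1: gtgtaagggtaggatacggtAGG
C-RIGHT-G3: ggaagatatccacctattcgTGG

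Joining the reference at the listed ends gives the 30 bases expected at each deletion on the plus strand, with the right-hand 15 bases in capitals. These joins were not read from the clones.
Z: gaagttcaccctttgCGCTTTGATCCCAAT
B: tttcttcctccactaTGCGATTCCGTCTCT
C: aagccgtatcctaccATAGGTGGATATCTT

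The element that stayed is shown by its OSN site, AOSN (chr16:48308688-48309349, 662 bp), of which 84.1% is marked as repeat in the reference. Its longest repeat-free stretch, chr16:48309044-48309101 on the plus strand, overlaps no Dppa2 exon and reads as follows.
AOSN: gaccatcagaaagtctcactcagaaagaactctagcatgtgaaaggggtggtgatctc

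RT values are log2 ratios of early over late S-phase reads in 50 kb windows, after scaling, quantile normalization and smoothing by the authors. A window above 0 is called early here and a window below 0 late. After that normalization 0 is a relative level and need not mean equal early and late reads. The sequencing depth is unknown because only ratios were analysed. Between 11.6% and 19.6% of all windows had no value in a ∆Z.B.C column, and the interval examined, 80 windows from 1800 kb left of the window of A to 2150 kb right of it, had 70 windows with a value on both alleles of both clones. Across the genome the profiles of A6 and E5 correlated at r = 0.984 for the deleted alleles and for the control alleles alike. These are correlations across neighbouring smoothed windows, which are not independent. The control alleles lay within the range of the WT CAST alleles of 40 other clones in 74 of 74 windows for A6 and in 79 of 79 for E5.

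On the deleted allele an early segment of 300 kb remained around A. In both clones RT stayed above 0 in 6 adjoining windows, from 48.20 to 48.50 Mb, and in no other of the 71 windows with a value on both deleted alleles. On the control alleles the early segment ran over 20 windows and 1000 kb, from 48 to 49 Mb. The retained early segment therefore reached 100 kb to the left of the window of A and 150 kb to its right, against 300 kb and 650 kb on the control alleles. The authors' smoothing span, 300 kb, is as long as the retained segment, so its ends are not resolved to single windows. At an RT above 0.25 in both clones it was 3 windows long, and no window lay above 0.5 in both. Clone A6 had the same 6 early windows when taken alone. Clone E5 had 9, from 48.15 to 48.60 Mb. On WT-129 alleles, measured in 2 clones of other genotypes whose deletion was on CAST (∆CTSS clone C4 and ∆CR11.8k clone 50), the early segment covered 17 windows from 48.10 to 48.95 Mb.

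Within the remaining early segment the deleted allele was earliest at A or just to its left. The window of Z and A, 48.30 to 48.35 Mb, had an RT of 0.34 in A6 and 0.40 in E5, against 1.16 and 0.79 on the control alleles. The next window to the left, 48.25 to 48.30 Mb, held the Dppa4 start and the highest mean RT of the deleted allele, 0.39 ± 0.05 (SD, n = 2). In clone A6 this window was also the earliest, with 0.35. In E5 the earliest window was 48.20 to 48.25 Mb, with 0.43. These neighbouring windows differed by less than the spread between the clones, so no single one can be named as the earliest. The control alleles were earliest at 48.35 to 48.40 Mb in both clones, with 1.30 in A6 and 1.17 in E5, 100 kb to the right of the highest mean on the deleted allele. That window had an RT of 0.20 and 0.39 on the deleted allele.

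No window of the remaining segment reached the level of its control. Over the 6 windows the mean RT on the deleted allele was 0.24 in A6 and 0.38 in E5, whereas on the control allele it was 1.12 and 0.94. On the WT-129 alleles the mean there was 1.02. In the window of A the difference between deleted and control allele was −0.82 in A6 and −0.40 in E5 (mean −0.61, SD 0.30, SE 0.12 from the pooled spread, limma adjusted p = 0.000441). Against the mean of the WT-129 alleles it was −0.71 in A6 and −0.66 in E5. The corresponding fit of deleted against WT-129 alleles gave a 95% interval from −1.01 to −0.36 and an adjusted p of 0.149 over all windows of the genome.

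**Figure D1:**
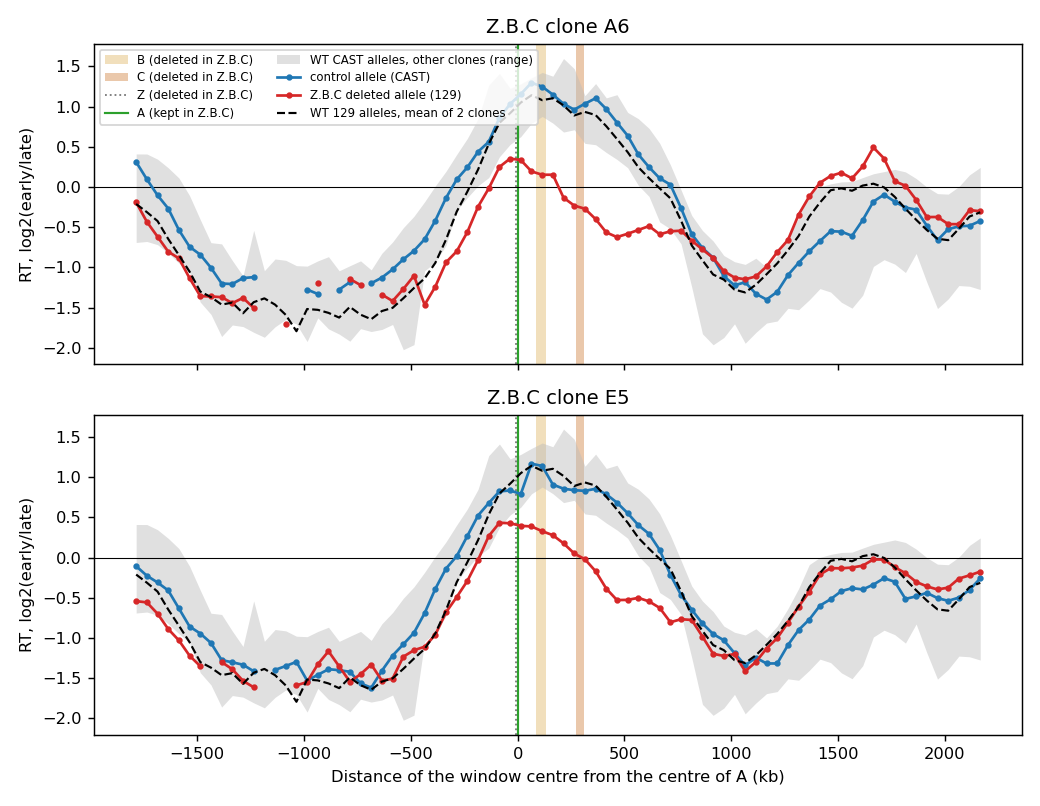
RT (log2 early over late) of each 50 kb window against its distance from the centre of A, for clone A6 above and clone E5 below, with 1 value per allele and window. Red is the ∆Z.B.C allele, blue the CAST control allele, grey the range of WT CAST alleles of other clones and the dashed line the mean of 2 WT-129 alleles. Red lies above 0 from 48.20 to 48.50 Mb in both clones, where blue averages 1.12 in A6 and 0.94 in E5.

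To the right of A the deleted allele passed from early to late RT over several windows. In the window 48.50 to 48.55 Mb the RT was −0.13 in A6 and 0.18 in E5, on either side of 0. At 48.60 to 48.65 Mb, in the right part of C, it was −0.27 in A6 and −0.02 in E5, the first window right of A in which both clones were late. At 48.70 to 48.75 Mb it was −0.56 in A6 and −0.39 in E5, where the control alleles still had 0.97 and 0.79. From 48.75 to 49.10 Mb the deleted allele stayed between −0.62 and −0.49 in A6 and between −0.80 and −0.50 in E5. Its mean RT there was −0.56 and −0.61, while the control alleles went from 0.80 and 0.68 in the first window to −0.26 and −0.47 in the last.

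The delay was greatest well away from A. Its mean was largest at 48.70 to 48.75 Mb, 400 kb right of the window of A and to the right of the C deletion, at −1.53 in A6 and −1.17 in E5 (mean −1.35, SE 0.12, limma adjusted p = 3.32e-09). In clone E5 alone the largest value, −1.21, was 1 window further right. Against the WT-129 alleles both clones had their largest delay in the window 48.70 to 48.75 Mb as well, at −1.32 in A6 and −1.14 in E5 (adjusted p = 6.75e-06). The delay then shrank to −0.58 in A6 and −0.59 in E5 at 49 to 49.05 Mb, a window called at an adjusted p of 0.000649. It was −0.28 and −0.30 at 49.05 to 49.10 Mb, with an adjusted p of 0.0614.

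Counted outward from A, the delay was at least 0.25 in both clones over 25 adjoining windows, 47.85 to 49.10 Mb. It reached 750 kb to the right of the window of A and 450 kb to its left. A delay of this size in both clones was found in 33 of the 70 windows of the interval and in 10.8% of windows genome-wide. The right-hand reach was 750 kb in each clone alone and 700 kb with the WT-129 alleles as control, so it moved by 1 window. The left-hand reach was 600 kb in A6 and 450 kb in E5. With the WT-129 alleles as control the left-hand reach in both clones together fell to 150 kb, ending at 48.15 Mb. Taken alone against WT-129, A6 still reached 450 kb to the left and E5 150 kb.

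Towards the left border of the domain the deleted allele turned late nearer to A than its control did. At 48.15 to 48.20 Mb its RT was −0.02 in A6 and 0.27 in E5, and at 48.10 to 48.15 Mb it was −0.24 and −0.03. The control alleles had 0.44 in A6 and 0.52 in E5 in that window and were still above 0 at 48 to 48.05 Mb, with 0.09 and 0.02. The WT-129 alleles averaged 0.22 at 48.10 to 48.15 Mb and −0.31 at 48 to 48.05 Mb, so their own early border lay between those of the deleted and the CAST alleles.

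To the left of A the strains differed without any deletion, and the delay depended on the choice of control. From 47.85 to 48.20 Mb the deleted allele had a mean RT of −0.75 in A6 and −0.47 in E5, and the control allele 0.02 and 0.04. All 7 windows were called later (limma adjusted p from 6.1e-05 at 48.10 Mb to 0.023 at 47.85 Mb). The WT-129 alleles had a mean of −0.33 in these windows and the WT CAST alleles of other clones 0.04. The deleted allele was therefore later than WT-129 by 0.42 in A6 and by 0.14 in E5, and none of the 7 windows was called by limma in that fit, with 4 at an unadjusted p under 0.05. All 40 other clones with a deletion on this homolog and a WT CAST allele also had a later deleted allele here, with a median difference of −0.56. Those clones carry deletions of the same domain, and their deleted allele was later in 39 of 40 over the early segment as well (median −0.43) and in 39 of 40 from 48.50 to 49.10 Mb (median −0.50). WT-129 and WT CAST differed by 0.0010 and −0.04 in these spans without a deletion. To the left of A, strain and deletion cannot be told apart within ∆Z.B.C, in which the deletion is on the same homolog in both clones.

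To the right of A the delay was close to the same with either control. Over the 8 windows from 48.35 to 48.75 Mb, the delay against the control allele of the same clone averaged −1.24 in A6 and −0.84 in E5. Against WT-129 it averaged −1.11 and −0.90. WT-129 and WT CAST differed by 0.01 there. Over the 8 windows at the same distances to the left, 47.90 to 48.30 Mb, the delay was −0.73 in A6 and −0.49 in E5 against the control allele, and −0.46 and −0.23 against WT-129. In both clones and with both controls the right-hand mean was the larger. The levels of the controls also differed between the sides. The control allele averaged 0.34 in A6 and 0.33 in E5 on the left and 1.10 and 0.92 on the right, and WT-129 averaged 0.06 and 0.98. The deleted allele itself was later on the left, at −0.40 in A6 and −0.16 in E5, than on the right, at −0.14 and 0.08. With 2 clones an exact paired permutation test could not reach a p of 0.05, and none was run.

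Areas between the curves, summed as RT differences over windows of 50 kb from 800 kb left of the window of A to 1150 kb right of it, gave the same order. The 2 sides are of unlike length and the sums are net. Against WT-129 the deleted allele averaged 0.14 in A6 and 0.11 in E5 from 46.90 to 47.85 Mb, which is partly in the left span. From 49.10 to 49.45 Mb, in the right span, it averaged 0.13 and −0.06. Left of the window of A the area was −6.0 against the control alleles and −1.60 against WT-129, where A6 gave −2.65 and E5 −0.87. Right of that window it was −13.7 against the control alleles and −12.3 against WT-129, where A6 gave −12.2 and E5 −12.3. Between WT-129 and WT CAST, with no deletion on either, the area was −4.52 on the left and −0.29 on the right.

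**Figure D2:**
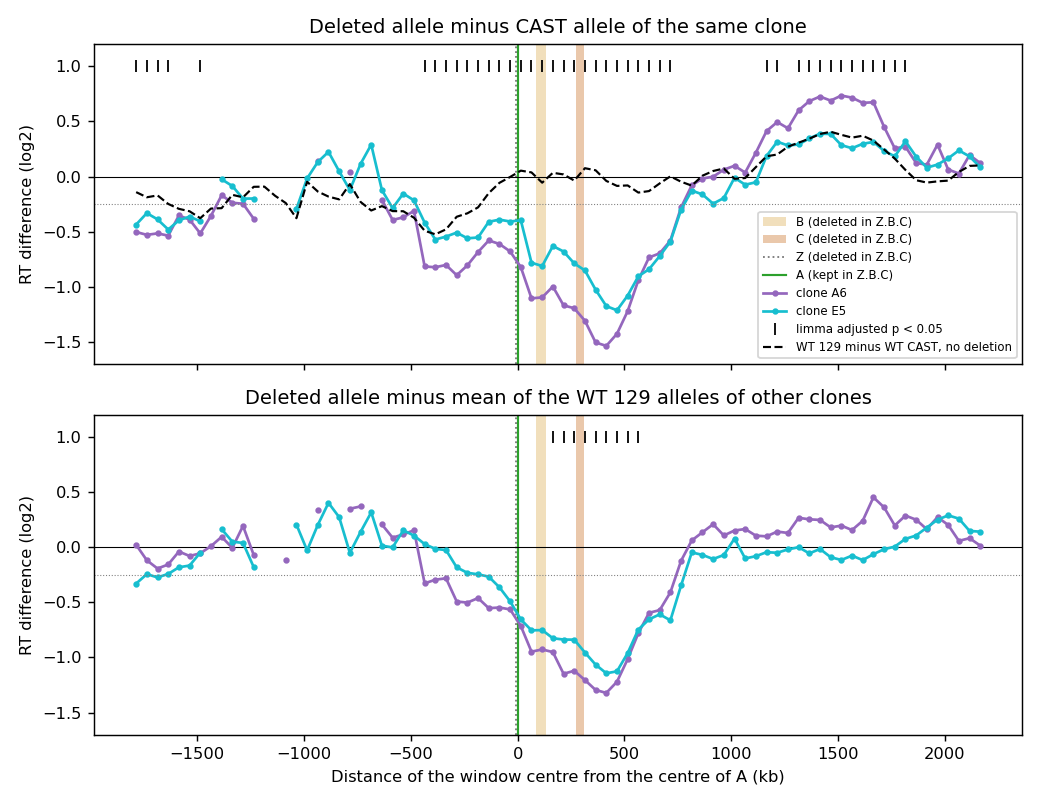
Difference in RT (log2) of the ∆Z.B.C allele from the CAST allele of the same clone (above) and from the mean WT-129 allele (below), by distance of the window from A, with 1 line per clone. Ticks mark windows at a limma adjusted p under 0.05 and the dashed line the strain difference without a deletion. The trough of −1.53 and −1.17 right of C is present with both controls, and the dashed line is also below 0 to the left of A and above 0 at the right end.

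Of the 70 windows tested, 42 were called in the fit of deleted minus control allele, 29 of them later and 13 earlier. Genome-wide, 18.8% of windows were called, 10.7% later and 8.1% earlier, and in that fit the strain difference is part of the value in every window. In the fit against WT-129, 9 of 71 windows were called, all of them later and all adjoining, from 48.45 to 48.90 Mb. Windows called later made up 0.0224% of the genome in that fit, and all 9 lay here. With clone A6 alone 8 windows of the interval were called later, and with clone E5 alone 4. In these fits with a single ∆Z.B.C clone, it is assumed to vary as the clones of other genotypes do. The mean RT over the span of the areas was −0.62 ± 0.0095 (SD, n = 2) on the deleted alleles and −0.10 ± 0.12 (SD, n = 42) on the WT CAST alleles of all clones, the controls of ∆Z.B.C included. Each allele was averaged over the windows in which it had a value, and these were not the same for all. The deleted allele of A6 had none at 47.60 to 47.65 Mb, where that of E5 had −1.33. In single windows of the interval the deleted allele lay below every WT CAST allele of the other clones in 26 of 73 windows for A6 and in 25 of 76 for E5. For the mean over the span, no WT CAST allele was as low as either deleted allele, the lowest being −0.44 (exact two-sided permutation p = 0.00106, the smallest possible). That comparison is also one of strains, and the WT-129 alleles, at −0.25 ± 0.0061 (SD, n = 2), were lower than the WT CAST mean without a deletion. Against these 2 WT-129 alleles the exact two-sided permutation p was 0.333, the smallest that 2 against 2 allows. Against the 2 control alleles of the same clones, at −0.09 ± 0.10, the exact two-sided permutation p was likewise 0.333. That test did not pair the alleles of a clone.

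Several windows of the delayed segment had lost sequence on the deleted homolog. The deletions removed 86.1% of the window 48.40 to 48.45 Mb and 6.39% of the window to its left, 37.3% of 48.55 to 48.60 Mb and 40.7% of 48.60 to 48.65 Mb. The Z deletion removed 1.15% of the window of A. Values there rest on the bases that remain and, by the authors' smoothing over 300 kb, on their neighbours. The windows with the largest delay, 48.70 to 48.80 Mb, contained no deleted sequence. Without the 5 windows that lost sequence the area changed from −21.1 to −16.5.

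Beyond the delayed segment the difference changed sign. From 49.10 to 49.45 Mb it averaged 0.04 in A6 and −0.12 in E5, and none of the 7 windows was called by limma or had an unadjusted p under 0.05. From 49.45 to 50.15 Mb the deleted allele was earlier than its control by 0.56 in A6 and by 0.29 in E5, and 13 of 14 windows were called earlier. WT-129 was earlier than WT CAST by 0.28 in these windows, and the deleted allele was earlier than CAST in all 40 other clones. Against WT-129 the ∆Z.B.C allele averaged 0.23 in A6 and −0.04 in E5, with none of the 14 windows called by limma and none at an unadjusted p under 0.05. In the first 7 windows of the interval, up to 46.85 Mb, the difference was −0.48 in A6 and −0.40 in E5 with 5 windows called. Against WT-129 it was −0.09 and −0.21 there, with none called and none at an unadjusted p under 0.05. Between these windows and the delayed segment, from 46.90 to 47.85 Mb, both alleles were late in both clones on average, at −1.34 in A6 and −1.41 in E5 on the deleted allele and at −1.14 and −1.35 on the control allele. Of the 10 windows tested there none was called by limma, with 2 at an unadjusted p under 0.05.

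The interval holds the starts of 14 protein-coding genes, each described by the window of its start. On the control alleles 10 of them lay in early windows in both clones. On the deleted allele the start windows of 4 stayed early in both clones and those of 6 were late in both. Of the 4, Gm5485 is wholly absent from the deleted allele, Morc1 has lost its start and Dppa2 its annotated start in Z. The window shared by Gm5485 and Morc1 lost 86.1% of its sequence, so its value describes the remaining bases and, through smoothing, its neighbours. Windows that were early on both control alleles and late on both deleted alleles numbered 11 of 70 here (3 left of A and 8 right of it) and made up 2.23% of the genome. With the mean WT-129 allele in place of the control alleles there were 8 such windows of 71, of which 1 was left of A.

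The genes whose start windows stayed early start beside A or within B. Dppa4 (48283733 to 48294237, plus strand) and Dppa2 (48303908 to 48319723, plus strand) encode chromatin-binding proteins of pluripotent cells. Dppa4 had an RT of 0.35 in A6 and 0.43 in E5 on the deleted allele, against 1.03 and 0.84 on the control allele. Dppa2 shares the window of Z and A, given above, and its annotated start at 48303908 lies in the deleted Z. Gm5485, a predicted gene, and Morc1, which represses transposons in the male germ line, start in the window of B. That window had 0.15 in A6 and 0.33 in E5 against 1.25 and 1.14, although both starts are absent from the deleted allele. Morc1 extends beyond B to 48630900, into a window with −0.27 in A6 and −0.02 in E5.

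The genes that went from early to late lay right of C. Trat1, an adaptor of the T cell receptor that starts at 48772021 on the minus strand, had −0.62 in A6 and −0.53 in E5 against 0.80 and 0.68 (limma adjusted p = 3.5e-09). Retnlb and Retnla, secreted resistin-like proteins, share a window with −0.58 and −0.53 on the deleted allele against 0.64 and 0.55. Retnlg, of the same family, had −0.53 and −0.50 against 0.41 and 0.40. Dzip3, a ubiquitin ligase, and Cip2a, an inhibitor of the phosphatase PP2A, start back to back in 1 window, with −0.59 and −0.63 against 0.11 and 0.10. On the deleted allele these 6 genes lay between −0.50 and −0.63 in both clones, below every control value. In the fit against WT-129, the windows of Trat1, Retnlb, Retnla and Retnlg were called later, and the window of Dzip3 and Cip2a was not (adjusted p = 0.149). WT-129 had an RT of −0.02 in that last window.

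The genes farther right were late on both alleles or moved the other way. Myh15, a myosin heavy chain, had −0.54 in A6 and −0.77 in E5 against −0.26 and −0.47, in a window that was not called. Ift57, a part of the transport machinery of cilia, was called earlier, with −0.12 in A6 and −0.42 in E5 against −0.80 and −0.77. Cd47, a surface protein that inhibits phagocytosis, was likewise called earlier, with 0.18 and −0.13 against −0.55 and −0.42. WT-129 had −0.37 in the window of Ift57 and −0.02 in that of Cd47, and in both windows the clones of ∆Z.B.C lay on either side of it. Bbx, an HMG-box protein that starts at 50432390 on the minus strand, had −0.29 and −0.22 against −0.48 and −0.40 and was not called.

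**Figure D3:**
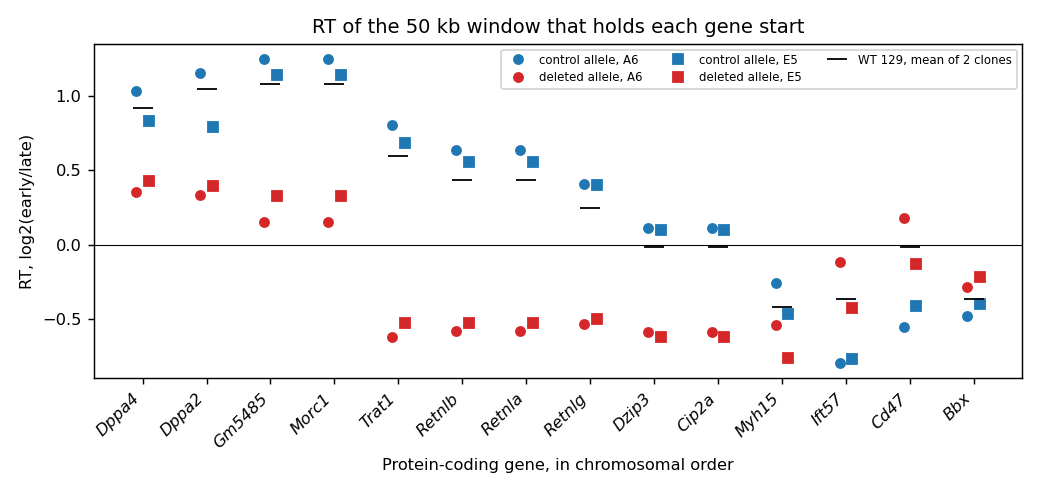
RT (log2 early over late) of the 50 kb window that holds each of 14 protein-coding gene starts, in chromosomal order, with 1 point per clone (circles A6, squares E5) for the deleted allele in red and the control allele in blue. The horizontal bar is the mean of 2 WT-129 alleles. The start windows of the 4 genes on the left stay above 0 on the deleted allele, although Gm5485 and the Morc1 start are themselves deleted. The next 6 sit between −0.50 and −0.63.

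Other genotypes differ from ∆Z.B.C in what they keep at A, B and C. In ∆A.B.COSN123 the deleted homolog lacks A and B entirely and the 3 OSN sites of C. ∆AOSN.B.COSN123 lacks only the first OSN site of A, with B and the 3 OSN sites of C. ∆BOSN12.COSN123 keeps A whole and lacks the 2 OSN sites of B and the 3 of C. In the window of A the deleted allele had an RT of −0.80 and −0.67 in the 2 clones of ∆A.B.COSN123, below both ∆Z.B.C clones. In the 5 clones of ∆AOSN.B.COSN123 it ranged from −0.26 to 0.55 with a mean of 0.01, and these values overlap those of ∆Z.B.C. The single clone of ∆BOSN12.COSN123 with values (A2) had 0.21.

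∆Z.B.C was earlier than ∆A.B.COSN123 around A. The contrast of their differences from the control allele could use only 1 clone of ∆A.B.COSN123 with a WT CAST allele, and 6 of 70 windows were called, all earlier in ∆Z.B.C. They were the 5 windows from 48.10 to 48.35 Mb and the window 48.55 to 48.60 Mb, against 0.0312% of windows called genome-wide. Without clone E5 only 2 windows were called. In the window of A the contrast was 1.25 (95% interval 0.81 to 1.68, limma adjusted p = 0.0115). Set directly against each other, the deleted alleles of 2 and 2 clones differed in 13 of 71 windows, adjoining from 48.05 to 48.70 Mb and all earlier in ∆Z.B.C, against 1.23% of windows genome-wide. The gap was 1.10 in the window of A. At 48.70 to 48.75 Mb it was 0.48 (95% interval 0.18 to 0.78, adjusted p = 0.078) and at 49 to 49.05 Mb its interval ran from −0.25 to 0.30.

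Neither of the other genotypes was separated from ∆Z.B.C in the contrasts of differences. These could use only the 2 clones of ∆AOSN.B.COSN123 with a WT CAST allele, out of 5, and 1 clone of ∆BOSN12.COSN123. Against ∆AOSN.B.COSN123 none of 70 windows was called by limma, with 3 at an unadjusted p under 0.05, and 0.283% were called genome-wide. Against ∆BOSN12.COSN123 none of 68 was called, with 1 at an unadjusted p under 0.05, and 0.00591% genome-wide. In the window of A the contrast with ∆AOSN.B.COSN123 was 0.44 with a 95% interval from 0.09 to 0.79, and with ∆BOSN12.COSN123 it was 0.03 with an interval from −0.40 to 0.47. At 48.70 to 48.75 Mb these intervals ran from −0.32 to 0.39 and from −0.33 to 0.54. The deleted alleles of ∆Z.B.C were called earlier than those of the 5 ∆AOSN.B.COSN123 clones in 2 of 71 windows, from 48.20 to 48.30 Mb, below the genome-wide share of 6.93%. The area over the span given above was −21.2 ± 4.0 (SD, n = 2) in ∆Z.B.C as a mean of its clones, −42.9 in the clone of ∆A.B.COSN123, −24.5 ± 2.95 (SD, n = 2) in ∆AOSN.B.COSN123 and −24.0 in ∆BOSN12.COSN123. The exact two-sided permutation p adjusted over the 3 pairs was 1.0 for each, and with these numbers no pair could go below an unadjusted 0.333.

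**Figure D4:**
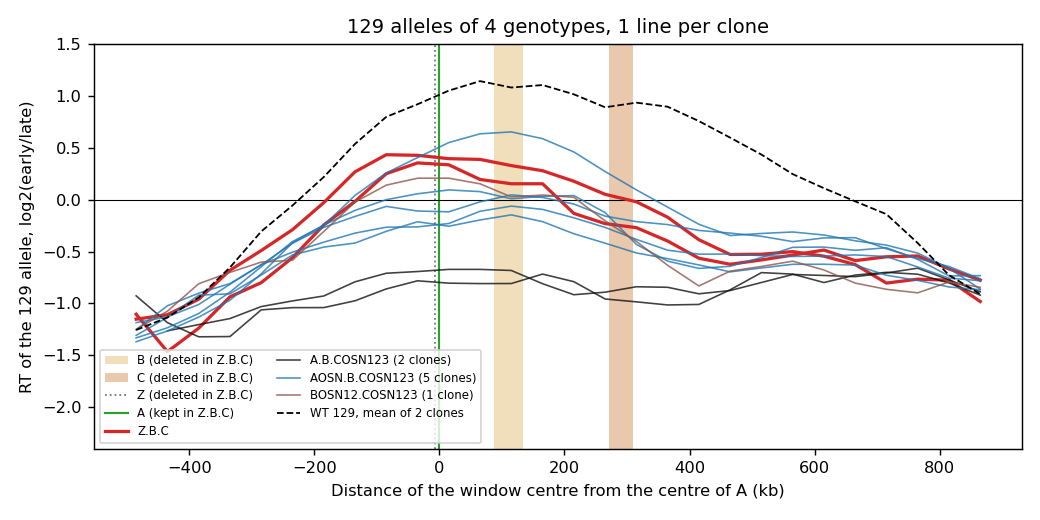
RT (log2 early over late) of the deleted allele by distance of the window from A in 4 genotypes, with 1 line per clone. The red lines of ∆Z.B.C cross 0 on both sides of A, and the black lines of ∆A.B.COSN123 stay below 0 over the windows plotted. About 800 kb right of A the lines of all 4 genotypes lie between −0.84 and −0.64.

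The 2 clones of ∆Z.B.C differed in the size of the delay, and also in its left-hand reach and in the length of the early segment, given above. A6 had the larger delay in all 7 windows from 47.85 to 48.20 Mb, in all 6 from 48.20 to 48.50 Mb and in 8 of 12 from 48.50 to 49.10 Mb. Outside the interval the difference of A6 exceeded that of E5 by 0.04 on average, with an SD of 0.21 over windows. In the early segment around A this gap was −0.31, made up of an earlier control allele in A6 (1.12 against 0.94) and a later deleted allele (0.24 against 0.38). Over the span of the areas as a whole the deleted alleles had mean RTs of −0.63 and −0.62, closer together than the control alleles, at −0.02 and −0.16. The windows with a value in this span were not the same for the 4 alleles.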

How the data were processed

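Cells were labelled with BrdU for 2 h and sorted into early and late S phase, and labelled DNA was sequenced. The authors trimmed reads with Trim Galore and cutadapt, aligned them to N-masked mm10 with bowtie2, split them by homolog with SNPsplit and counted them in 50 kb windows with bedtools (versions not given in the sources used here). The deposited values are log2 ratios of early over late counts, to which the authors applied scaling, quantile normalization and a loess fit with a span of 300 kb. Smoothing spreads a difference into neighbouring windows and makes adjoining windows dependent. Depth is unknown.

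Repeat runs and cultures were averaged to 1 value per clone and allele. The difference of deleted minus control allele was fitted by genotype in limma 3.58.1 (R 4.3.3) over 53 clones, with a pooled spread, in 36105 windows that had a value in both ∆Z.B.C clones and in at least 50% of all clones. P-values were adjusted (Benjamini-Hochberg) over all windows tested, with a threshold of 0.05. The same model was fitted to the strain-129 profiles against 2 WT-129 clones. It was tested on simulated data. Runs were counted outward from the window of A at differences of −0.25 or lower, or RT above 0, in both clones. Named windows are those of Z, A, B and C, the earliest and most delayed windows, the ends of runs, and the windows of protein-coding gene starts (GENCODE vM21). The members, gene lists and intervals were chosen with earlier results of these data known. Alternatives covered the control allele, interval, threshold, pairing of alleles, unit and single clones. Libraries without a value column were not analysed here.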

Additional observations from a re-analysis of the deposited data

Results flagged for a closer look

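The allelic difference of ∆Z.B.C and that of ∆A.B.COSN123 were tested against each other in the fit across all windows, and 6 of the 70 windows tested around A differed at a limma adjusted p under 0.05. In all 6 the ∆Z.B.C allele was delayed less. The contrast used 1 clone of ∆A.B.COSN123, and how that clone differs from others of its genotype was not tested.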

How the results depend on the processing

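No paired analysis was possible between clones of different genotypes by replicate number, because the labels of ∆Z.B.C carry clone names only. The alleles of a clone were paired in the difference itself, and the fit without that pairing called 29 windows in place of 42. Of 66 alternatives, 39 stayed close to the value reported, 26 moved it and 1 turned its sign, and 7 of the 66 were chosen after seeing the data. The area of −21.1 was −15.2 with WT-129 alleles as control, −16.6 over 48 to 49 Mb and −16.5 without windows that hold deleted sequence, and −24.0 to −18.4 with 1 clone. The 42 windows called became 9 against WT-129 alleles (4 without clone A6 and 8 without E5), 0 by limma against the mean difference of other genotypes (12 at an unadjusted p under 0.05), 19 at a plain difference of at least 0.5 in both clones, and 17 to 35 with 1 clone. The left reach of 450 kb was 650 kb at differences below 0, 150 kb with both WT-129 alleles, 200 kb and 100 kb with each of them alone (∆CR11.8k clone 50 and ∆CTSS clone C4), and 450 to 600 kb with 1 clone. The right reach of 750 kb was 900 kb at differences below 0 and 700 kb by adjusted p, with the mean WT CAST curve, with both WT-129 alleles and with each alone. The 6 early windows became 3 at an RT above 0.25 and 0 above 0.5, and 6 to 9 with 1 clone. Against ∆A.B.COSN123 the 6 windows became 13 with the mean WT curve as control, 12 with libraries in place of clones and 2 to 7 with 1 clone. Against ∆AOSN.B.COSN123 the 0 windows became 2 with the mean WT curve, and the area difference of 3.34 was 0.497 to 6.17 with 1 clone. The area difference from ∆BOSN12.COSN123, 2.80, was −0.0387 without clone E5 and 5.64 without A6. The causes were not tested. The fit on windows with a value in every clone could not cover this interval, since 1 clone has no CAST values on this chromosome. No reach exists at a difference of −0.5, as E5 had −0.40 in the window of A. Depth is unknown, so its limit on these values could not be given.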

Other observations

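In the fit of the deleted ∆Z.B.C alleles against the WT-129 alleles, 20 windows were called in the whole genome. Apart from the 9 later windows between A and the right border of the domain, 11 were called, all earlier in ∆Z.B.C by 0.66 to 0.86. Of these, 3 lay on chromosome 16 outside the interval described and 8 on other chromosomes.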
